A study of Mus musculus with 12 samples.

Results

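The nuclear genes that encode subunits of the respiratory chain and the ATP synthase were followed in the medial prefrontal cortex (mPFC) of mice kept in their homecage (HC) and of mice after chronic social defeat (CSD). The genes were chosen by symbol alone, with no measured value: Ndufa, Ndufb, Ndufc, Ndufs or Ndufv plus a number, Sdha to Sdhd, Cyc1, and every symbol that starts with Uqcr, Cox4 to Cox8 or Atp5. Of 19938 genes with a probe set of their own, 81 matched, and 80 of these were among the 17656 genes measured above system noise. They were 33 genes of complex I, 4 of complex II, 9 of complex III, 17 of complex IV and 17 of complex V. The testis isoform Cox7b2 was the member left out, with log2 intensities between 5.18 and 5.54 on the 12 arrays against a noise level of 5.75. Ndufa4 is counted with complex IV, where its product is found, and not with complex I as its symbol would have it. Cox7a2l is counted with complex IV by its symbol, although its product is no subunit of the mature enzyme.

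The 12 arrays held mPFC of male wild type C57BL/6 mice, 6 HC and 6 CSD, with 200 ng of RNA on each array and 1 mouse per array. CSD mice lived for 14 days beside a larger CD-1 male, separated by a perforated partition, and met it directly for 5 min each day, whereas HC mice were housed in groups. Tissue was taken 24 h after the last defeat, and the CSD mice had been screened by behaviour before they were included, so that they stand for mice selected for a response. The age of the mice was not given in the labels, and the defeated mice differed from HC mice in housing as well as in defeat.

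The respiratory chain sits in the inner mitochondrial membrane. Complexes I and II pass electrons from NADH and succinate to ubiquinone, complex III passes them on to cytochrome c and complex IV to oxygen, and complex V uses the proton gradient made on the way to form ATP. Most subunits are encoded in the nucleus and imported, a few are encoded by mitochondrial DNA, and in brain most of the ATP so made is spent on ion pumping and synaptic transmission.

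All 12 arrays resembled each other closely, with median correlations to the other arrays of their own group between 0.991 and 0.996. HC replicates 6 and 2 had the lowest ones, 0.991 and 0.992. Counts over all genes and over the members, and several single genes, are given without them too. The medians and shares of the single complexes and of the other lists are not. Over all 17656 measured genes the median log2 fold change (CSD minus HC) was −0.01, and 1151 genes were lower against 334 higher at an unadjusted limma p under 0.05. This balance rested largely on HC replicate 2, without which 889 were lower and 959 higher, and without HC replicates 2 and 6 it was 593 lower and 892 higher. All 14 measured oligodendrocyte markers were lower in CSD, with a median of −0.58, and their mean log2 intensity lay between 9.61 and 10.19 on the HC arrays and between 9.09 and 9.59 on the CSD arrays. The 8 excitatory neuron markers had a median of −0.03, with 0 at an unadjusted limma p under 0.05 in either direction. In bulk tissue, fewer cells of a type and less RNA per cell cannot be told apart.

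Expression of the respiratory chain genes differed little between CSD and HC mice. After adjustment over all probe sets, limma called 0 of the 80 (adjusted p under 0.05, difference of 1.2-fold or more), and the same rule called 0% of all measured genes. The methods' t-test also called 0, both of the members and of all measured genes. At an unadjusted limma p under 0.05, 3 members were higher in CSD (Uqcr11, Atp5l and Ndufb2) and 3 were lower (Ndufv3, Sdhc and Uqcrc1). These 6 are 3.75% of the members in each direction, beside 1.89% of all measured genes that were higher and 6.52% that were lower. Without HC replicates 2 and 6, 4 members were higher and 2 lower, beside 892 higher and 593 lower of the 17452 genes measured then. With all arrays, the shares among the 4946 genes at or above the lower quartile of the members' intensities were 2.43% and 9.85%. For 0 members was every CSD array above every HC array, and for 0 below, beside 0.0793% and 0.935% of all measured genes.

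The members lay evenly around no difference, 40 with a higher and 40 with a lower mean in CSD and a median log2 fold change of −0.0003. The middle of their distribution ran from −0.03 at the lower quartile to 0.03 at the upper quartile, against −0.05 and 0.03 for all measured genes. Of the 80, 8 (10%) differed by 0.1 or more on the log2 scale, beside 14.4% of all measured genes. Among the genes at or above the lower quartile of the members' intensities this share was 13.1%. For 76 of the 80 (95%) the 95% interval of the difference stayed inside a fold change of 1.2 in either direction. This held for 89.0% of all measured genes, but for 94.2% of the genes at or above the lower quartile of the members' intensities, close to the members' share. The 4 whose interval reached further were Uqcr11, Atp5l, Cox8b and Cox8c, so that for the rest a change of that size lay outside the interval.

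**Figure D1:**
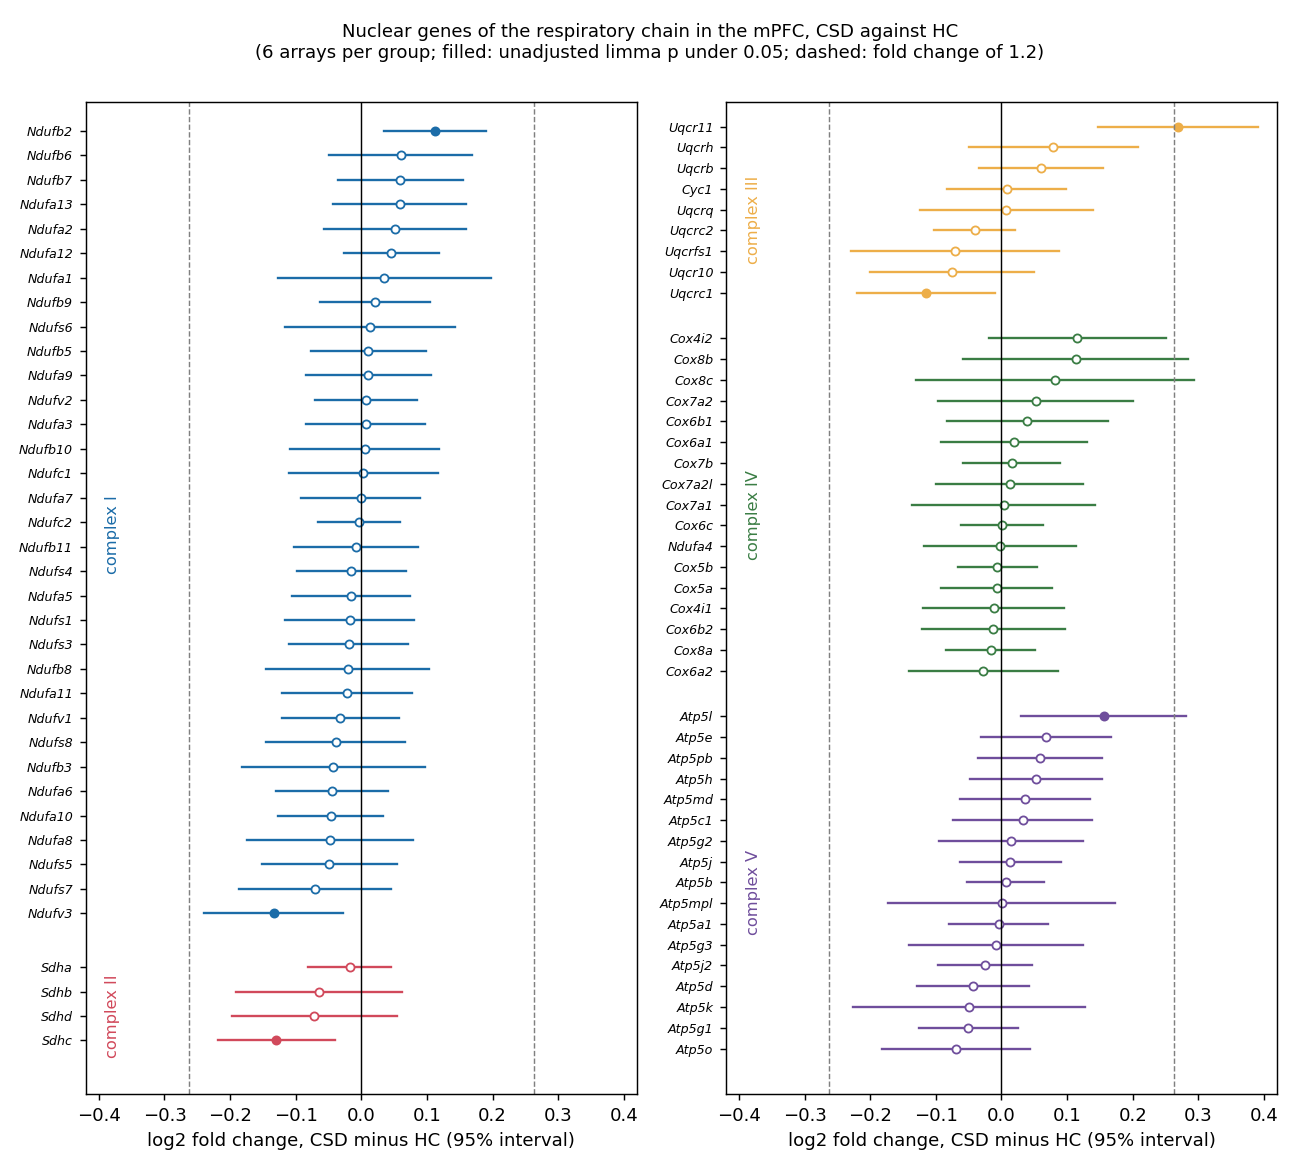
Log2 fold change (CSD minus HC, x axis) of each of the 80 genes with its 95% interval, ordered by size within each complex. Filled points are the 6 genes with an unadjusted limma p under 0.05, and the dashed lines mark a fold change of 1.2, which 76 of the intervals do not reach.

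**Figure D2:**
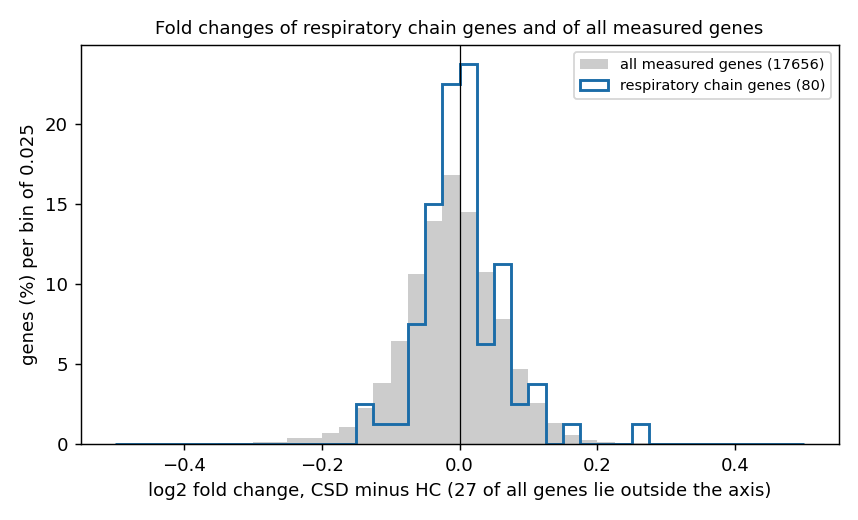
Share of genes (y axis, %) in bins of the log2 fold change (x axis) for the 80 respiratory chain genes (outline) and all 17656 measured genes (grey). The outline is centred on 0 with 1 gene, Uqcr11, beyond 0.2, and 27 of all measured genes lie outside the axis.

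Complex I, the entry point for electrons from NADH, gave 33 members, 15 with a higher and 18 with a lower mean in CSD, and a median log2 fold change of −0.003. The core subunits that carry the electrons showed little difference. Ndufs1, the largest core subunit with several iron-sulfur clusters, ran from 10.33 through a median of 10.39 to 10.54 on the HC arrays and from 10.29 through 10.40 to 10.48 on the CSD arrays. The groups of Ndufs1 overlapped, with 2 CSD arrays below every HC array, and gave a log2 fold change of −0.02 ± 0.05 (SE, n = 6 per group).

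Ndufv1, which binds NADH, differed by −0.03 ± 0.04 (SE) and Ndufv2, the iron-sulfur subunit next to it, by 0.01 ± 0.04. Ndufs3 and Ndufs8, core subunits of the matrix arm, differed by −0.02 ± 0.04 and −0.04 ± 0.05. Ndufs7, which holds the last iron-sulfur cluster before ubiquinone, gave the largest difference of the core, −0.07 ± 0.05, with an exact permutation p of 0.193. Its CSD values ran from 12.23 through a median of 12.51 to 12.59 and its HC values from 12.51 through 12.53 to 12.59, so that 1 low CSD array set the mean apart while the medians nearly met. Of the 6 core subunits measured, 5 had a lower mean in CSD and the median was −0.03, and 0 had an unadjusted limma p under 0.05 in either direction. The 27 accessory subunits split into 14 higher and 13 lower, with a median of 0.003.

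Ndufb2 and Ndufv3, both accessory subunits, stood at opposite ends of complex I. Ndufb2, in the membrane arm, ran from 8.04 through a median of 8.14 to 8.23 on the HC arrays and from 8.21 through 8.26 to 8.30 on the CSD arrays. Of its CSD arrays 4 were above every HC array, and all 6 were above the HC mean. The log2 fold change was 0.11 ± 0.04 (SE), with a limma p of 0.00857, an adjusted p of 0.394 and an exact permutation p of 0.00649 (two-sided, 462 splits of the arrays).

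Ndufv3, a small subunit of the NADH-oxidising end, ran from 9.40 through 9.45 to 9.60 in HC and from 9.20 through 9.34 to 9.46 in CSD. Of its CSD arrays 5 were below every HC array, and the remaining one lay among the HC values. The log2 fold change was −0.13 ± 0.05 (SE), with a limma p of 0.0173, an adjusted p of 0.458 and an exact permutation p of 0.0173. Both differences were small beside a fold change of 1.2, since Ndufb2 was 1.08-fold and Ndufv3 0.912-fold the HC level. Without HC replicates 2 and 6 the difference of Ndufv3 was −0.11, with a limma p of 0.0412 and an adjusted p of 0.539.

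Complex II, succinate dehydrogenase, is the enzyme shared by the citric acid cycle and the chain and is encoded wholly in the nucleus. Its 4 genes all had lower means in CSD, with a median of −0.07, the lowest of the 5 complexes. Their mean deviation was 0.09 on HC replicate 2, 0.08 on HC replicates 3 and 6 and 0.06 on HC replicate 1. On HC replicates 4 and 5 it was −0.04 and −0.05. Over the alternatives run, the median of complex II lay between −0.14 and −0.045. Of all measured genes 57.1% had a lower mean, and of the genes at or above the lower quartile of the members' intensities 64.2%. Sdhc, 1 of the membrane anchors that bind ubiquinone and haem, ran from 10.46 through a median of 10.58 to 10.66 in HC and from 10.37 through 10.45 to 10.49 in CSD. The groups overlapped only at the edge, with 4 CSD arrays below every HC array and all 6 below the HC mean. The log2 fold change was −0.13 ± 0.04 (SE), with a limma p of 0.00809, an adjusted p of 0.383 and an exact permutation p of 0.00866. The highest HC values of Sdhc were on replicates 2 and 6 (10.66 and 10.65). Without HC replicates 2 and 6 the difference of Sdhc was −0.09, with a limma p of 0.0439 and an adjusted p of 0.544.

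The remaining genes of complex II did not separate the groups. Sdhd, the other anchor, differed by −0.07 ± 0.06 (SE, exact permutation p = 0.251), and Sdhb, the iron-sulfur subunit, by −0.06 ± 0.06 (exact permutation p = 0.307). Sdha, the flavin subunit that oxidises succinate, differed by −0.02 ± 0.03, and its HC range of 12.16 to 12.24 nearly covered its CSD range of 12.15 to 12.23. Citric acid cycle genes outside complex II, of which 17 were measured, had 14 lower means (82.4%) and a median of −0.05. This share stands beside the 57.1% and 64.2% given above. Fumarase (Fh1), the next enzyme of the cycle, was the only one of these with an unadjusted limma p under 0.05, at −0.09 ± 0.04 (SE, limma adjusted p = 0.462). That is 5.88% of the 17, near the 6.52% of all measured genes that were lower.

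**Figure D3:**
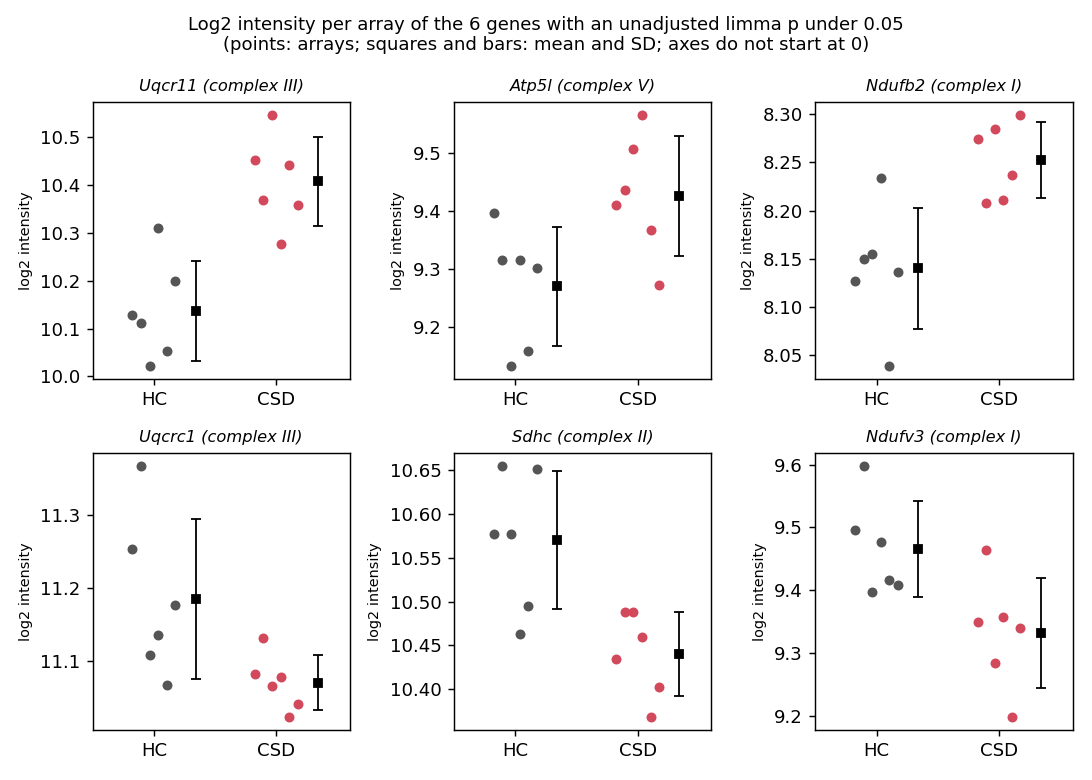
Log2 intensity (y axis) on each of the 6 HC and 6 CSD arrays for the 6 genes with an unadjusted limma p under 0.05, with the mean and SD as squares and bars. In the upper panels (Uqcr11, Atp5l, Ndufb2) the CSD arrays sit higher and in the lower panels (Uqcrc1, Sdhc, Ndufv3) lower, and the groups overlap in every panel.

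Complex III, the cytochrome bc complex, held the widest spread, from Uqcrc1 at −0.12 to Uqcr11 at 0.27, around a median of 0.01. Uqcr11, the smallest subunit, had the largest difference and the smallest p of all 80 members. It ran from 10.02 through a median of 10.12 to 10.31 on the HC arrays and from 10.28 through 10.40 to 10.55 on the CSD arrays. Of the CSD arrays 5 were above every HC array, and the sixth lay between the highest and the next HC value. The log2 fold change was 0.27 ± 0.06 (SE, 95% interval 0.15 to 0.39), a 1.21-fold level, with a limma p of 0.00038, an adjusted p of 0.158 and an exact permutation p of 0.00433. The smallest p that this permutation test allows is 0.00216. Without HC replicates 2 and 6 the difference of Uqcr11 was 0.28, with an adjusted p of 0.279.

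A second probe set of Uqcr11 gave 0.26 ± 0.06 (SE, limma adjusted p = 0.205). Whether both probe sets share probes or bind copies of the gene elsewhere in the genome was not tested, so they are no independent measurements.

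Uqcrc1 and Uqcrc2 encode the large paired proteins on the matrix side of complex III. Uqcrc1 ran from 11.07 through 11.16 to 11.37 in HC and from 11.02 through 11.07 to 11.13 in CSD, so that 3 CSD arrays lay below every HC array and the others among the lower HC values. Its log2 fold change was −0.12 ± 0.05 (SE), with a limma p of 0.035 and an exact permutation p of 0.0216. Its 2 highest values were HC replicates 2 and 1, and without HC replicates 2 and 6 the difference was −0.07 with a limma p of 0.110. Uqcrc2 differed by −0.04 ± 0.03 (SE), with an exact permutation p of 0.0455 and a limma p of 0.178. The arrays of Uqcrc2 lay close together within each group (SD of 0.03 in both), and limma widened this spread toward that of the other probe sets.

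The subunits of complex III that carry electrons did not differ beyond their spread. Cyc1, cytochrome c1, differed by 0.01 ± 0.04 (SE). Uqcrfs1, the Rieske iron-sulfur protein, ran from 8.78 to 9.22 in HC and from 8.78 to 9.05 in CSD and differed by −0.07 ± 0.07. The small subunits Uqcrh, the hinge protein, and Uqcrb differed by 0.08 ± 0.06 and 0.06 ± 0.04, and Uqcr10 by −0.08 ± 0.06.

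Complex IV, cytochrome c oxidase, had 0 of 17 members at an unadjusted limma p under 0.05, a median log2 fold change of 0.004, and 10 higher and 7 lower means. Several of its subunits come in isoforms, a ubiquitous one and one best known from heart and skeletal muscle, lung or testis. Among the ubiquitous ones Cox4i1 ran from 11.26 through 11.31 to 11.52 in HC and from 11.26 through 11.38 to 11.40 in CSD, a difference of −0.01 ± 0.05 (SE). Cox6a1 differed by 0.02 ± 0.05, Cox6b1 by 0.04 ± 0.06, Cox7a2 by 0.05 ± 0.07 and Cox8a by −0.02 ± 0.03.

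The alternative isoforms gave the largest differences of the complex. Cox4i2, an isoform known from lung and from the response to low oxygen, ran from 7.40 through 7.65 to 7.75 in HC and from 7.64 through 7.69 to 7.87 in CSD, and differed by 0.12 ± 0.06 (SE, exact permutation p = 0.106). All 6 CSD arrays were above the HC mean of Cox4i2, but only 2 were above every HC array. Cox8b, a muscle isoform, differed by 0.11 ± 0.08 and the testis isoform Cox8c by 0.08 ± 0.10, the latter with the widest standard error of the 80 members. The muscle isoforms Cox6a2 and Cox7a1 differed by −0.03 ± 0.05 and 0.004 ± 0.06, and the testis isoform Cox6b2 by −0.01 ± 0.05. Cox8b was the member nearest to system noise, with a mean log2 intensity of 6.47, where RMA values compress differences.

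Complex V, the ATP synthase, had 10 higher and 7 lower means and a median of 0.01. Its catalytic head was measured with high precision. Atp5b, the catalytic beta subunit, lay between 13.13 and 13.20 in HC and between 13.13 and 13.19 in CSD and differed by 0.01 ± 0.03 (SE). Atp5a1, the alpha subunit, differed by −0.004 ± 0.03. The rotating ring in the membrane is built from a single protein encoded by 3 genes, Atp5g1, Atp5g2 and Atp5g3, whose products differ only in the part removed on import. These differed by −0.05 ± 0.04, 0.01 ± 0.05 and −0.01 ± 0.06, and their groups overlapped in each case.

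Atp5l, subunit g of the membrane part, where the enzyme forms dimers, was the member of complex V with an unadjusted p under 0.05. It ran from 9.13 through a median of 9.31 to 9.40 in HC and from 9.27 through 9.42 to 9.57 in CSD. Of its CSD arrays 4 were above every HC array, and the remaining ones lay among the HC values. The log2 fold change was 0.16 ± 0.06 (SE), with a limma p of 0.0189, an adjusted p of 0.462 and an exact permutation p of 0.0303. Atp5l has 6 probe sets, which gave log2 fold changes from 0.14 to 0.17, and as for Uqcr11 it was not tested whether they share probes or bind copies of the gene.

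Other members with several probe sets allowed the same comparison. Of 16 such genes with 40 probe sets in all, 13 had all of them in 1 direction, and the widest difference between probe sets of a gene was 0.07, for Ndufc1. The 3 with both directions were Cox7b, Ndufb11 and Ndufc1, and each of their probe sets lay within 0.07 of 0.

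Promoter sequence was compared with the array values because NRF1, GABPA and YY1 are transcription factors known for binding near the start sites of respiratory genes. RefSeq promoters (GRCm38.p6, 250 bases before to 50 after the start site) were found for 65 members, 70 promoters in all. The core GCGCATGC of NRF1, on either strand, occurred in 14.3% of them and in 2.71% of all 32851 promoters. The core AAGATGGC of YY1 occurred in 14.3% and 2.75%, and the core CCGGAAGT of GABPA in 7.14% and 3.89%. No core contains another, and that of NRF1 reads nearly the same on both strands, so that 1 stretch can match on each.

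Of the 6 genes with an unadjusted p under 0.05, Uqcr11, Atp5l and Uqcrc1 held an NRF1 core. Their promoters are printed because these genes share the motif and differ in direction, with the matches in capitals, 5′ to 3′ on the gene's own strand.
Uqcr11, chr10:80406772-80407071, minus strand: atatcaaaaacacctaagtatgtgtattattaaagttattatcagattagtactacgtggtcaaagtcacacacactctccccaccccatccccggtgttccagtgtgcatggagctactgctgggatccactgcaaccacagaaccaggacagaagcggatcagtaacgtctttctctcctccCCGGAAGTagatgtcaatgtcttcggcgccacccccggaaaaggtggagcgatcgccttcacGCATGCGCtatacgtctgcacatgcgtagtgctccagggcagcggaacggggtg
Atp5l, chr9:44920693-44920992, minus strand: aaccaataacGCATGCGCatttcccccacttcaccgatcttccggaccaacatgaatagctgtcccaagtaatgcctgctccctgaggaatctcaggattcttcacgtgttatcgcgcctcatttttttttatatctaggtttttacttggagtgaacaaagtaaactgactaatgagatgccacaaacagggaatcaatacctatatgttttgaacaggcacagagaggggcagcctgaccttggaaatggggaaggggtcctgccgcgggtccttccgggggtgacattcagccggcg
Uqcrc1, chr9:108936398-108936697, plus strand: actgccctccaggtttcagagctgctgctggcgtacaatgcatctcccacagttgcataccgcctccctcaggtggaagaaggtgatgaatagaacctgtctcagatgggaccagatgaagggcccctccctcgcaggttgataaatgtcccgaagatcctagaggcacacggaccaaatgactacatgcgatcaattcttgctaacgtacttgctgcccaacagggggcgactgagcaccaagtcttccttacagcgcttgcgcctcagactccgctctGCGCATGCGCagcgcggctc

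In Uqcr11 the GABPA core begins 66 bases before the start site and the NRF1 core 4 bases before it. In Atp5l the NRF1 core begins 240 bases before the start site, and in Uqcrc1 a pair of overlapping matches begins 30 and 32 bases after it. Whether the motifs go with a direction of difference was not tested. The 10 genes with an NRF1 core had 4 higher and 6 lower means and a median log2 fold change of −0.03, against −0.001 for the 55 without it. The 10 genes with a YY1 core had a median of 0.005, against −0.003 without it, and the 5 with a GABPA core 0.05, also against −0.003. The gene of NRF1 itself was higher in CSD at an unadjusted p, with a log2 fold change of 0.10 ± 0.04 (SE, limma adjusted p = 0.535).

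The members moved together from array to array more than between the groups. HC replicate 5 had 10 of the 80 members above their mean over the 12 arrays, whereas HC replicates 1 and 2 had 58 each. On HC replicate 2 this went with the whole array, where 83.3% of all measured genes were above their mean, but on HC replicate 1 only 37.5% were and on HC replicate 5 39.7%. CSD replicate 9 had 24 members above their mean while 63.2% of all measured genes were above theirs. Shares per array among genes as bright as the members were not computed, so whether this is particular to the members was not tested.

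Averaged over the members, the deviation per array ran from −0.07 to 0.06 among HC arrays and from −0.04 to 0.03 among CSD arrays, and the group means differed by 0.003. On HC replicates 4 and 5 and CSD replicates 9 and 10 all 5 complexes were below 0, and on HC replicates 1 and 2 all 5 were above it. Complex II lay on the other side of 0 from all the other complexes on HC replicate 3 and on CSD replicates 2, 6 and 7. The SD over arrays was larger in HC than in CSD for 57 of the 80 members, 71.3%, against 73.3% of all measured genes. Without HC replicates 2 and 6 this held for 53 members, 66.3%, against 45.8% of all measured genes, a difference for which no test was made.

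**Figure D4:**
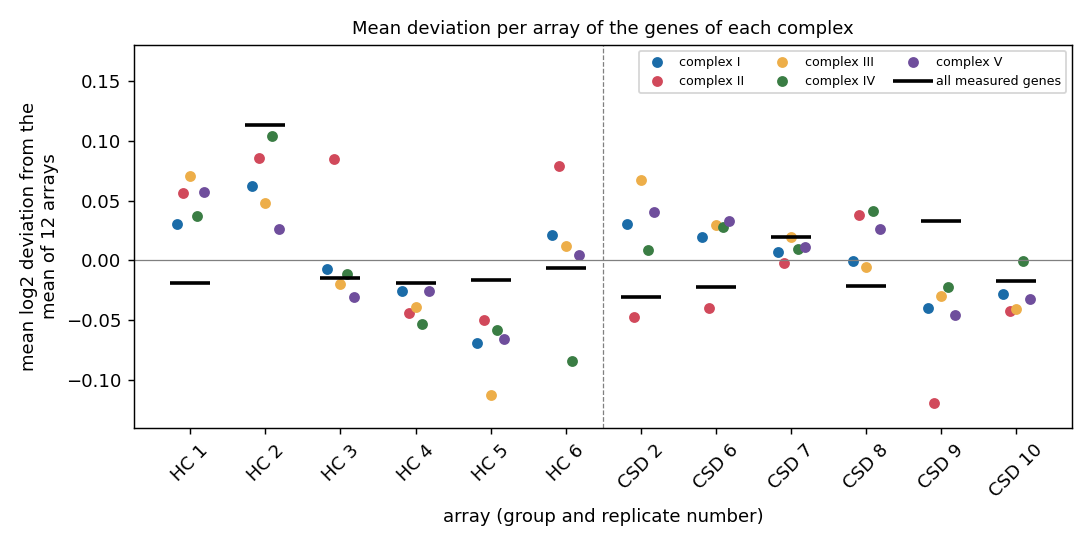
Mean log2 deviation of the genes of each complex from their mean over the 12 arrays (y axis), for each array (x axis, HC left and CSD right of the dashed line), with the black bars for all measured genes. HC replicate 5 lies below 0 and HC replicate 1 above 0 in all 5 complexes, while all measured genes lie at −0.02 on both.

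Genes that serve the complexes without being subunits are read beside the 57.1% of all measured genes that had a lower mean in CSD, or 64.2% of the genes at or above the lower quartile of the members' intensities. Of 44 assembly factors, 33 had a lower mean in CSD, with a median of −0.04, and 3 of them (Cmc1, Cox18 and Ndufaf4) were lower and 0 higher at an unadjusted limma p under 0.05. Cmc1, a copper-binding chaperone of complex IV, differed by −0.11 ± 0.05 (SE) and Cox18, which inserts a subunit of complex IV into the membrane, by −0.10 ± 0.04. Of 19 regulators of respiratory genes, 13 had a lower mean and the median was −0.03, and 1 (Nrf1, given above) was higher and 0 lower at an unadjusted limma p under 0.05. Esrrg, a nuclear receptor of this list, did not pass (−0.11 ± 0.05, SE, limma adjusted p = 0.620). Of 74 mitochondrial ribosomal proteins, 52 had a lower mean, the median was −0.03, and 6 were lower and 0 higher at an unadjusted p, led by Mrpl52 at −0.14 ± 0.03. These shares of lower genes, 3 of 44 and 6 of 74, stand beside the 6.52% of all measured genes.

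The 54 cytosolic ribosomal proteins had 37 higher means and a median of 0.02, with 1, Rps4l, lower at an unadjusted p. Among 13 glycolytic genes the median was −0.01. At an unadjusted p, Hk1, the hexokinase that binds mitochondria, was higher by 0.14 ± 0.03 (SE, limma adjusted p = 0.219), and Pgam1 was lower, at −0.08 ± 0.03 (limma adjusted p = 0.538). Of 9 relatives of the members that the symbols do not pick, 5 had a lower mean, among them Ndufab1, the acyl carrier protein of complex I, at −0.06 ± 0.04 and Etfdh, which passes electrons from fatty acid oxidation to ubiquinone, at −0.09 ± 0.04. The oligodendrocyte markers moved far more than any of these groups, and their part in the small differences of the respiratory genes was not tested.

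**Figure D5:**
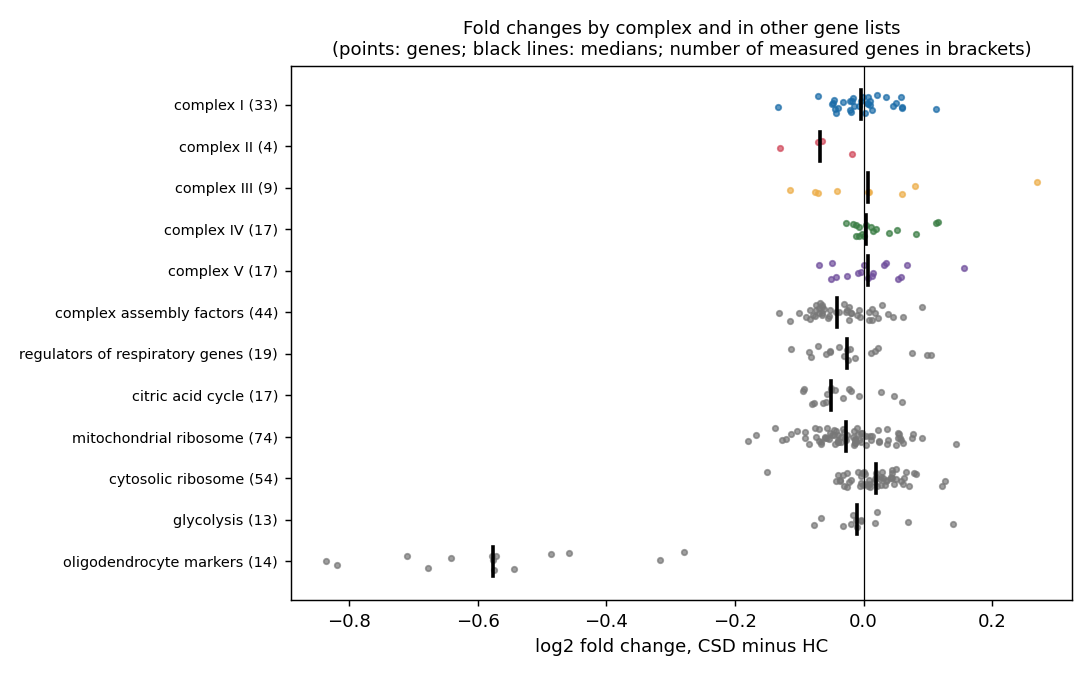
Log2 fold change (CSD minus HC, x axis) of each measured gene, by complex and in 7 other lists, with black lines at the medians. The 5 complexes have medians between −0.07 and 0.01, and the oligodendrocyte markers, with a median of −0.58, lie apart from them.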

How the data were processed

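Affymetrix Mouse Gene ST arrays of the mPFC of 6 HC and 6 CSD mice were used. The deposited values are on the log2 scale and, per the labels, come from Expression Console with the RMA method (versions not given in the sources used here). RMA corrects background, quantile-normalizes the arrays and summarizes probes into probe sets, and differences of dim probe sets are compressed. The deposited values still hold shifts of whole arrays, with array medians from 7.50 to 7.69 (HC replicate 2 highest). Precision is limited by the number of arrays.

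System noise was set at the 20th percentile of all log2 values, 5.75. Of 35556 probe sets, 5718 with no value above it were left out, and lower values of the others (4.67%) were raised to it. The platform annotation names a single gene for 21789 probe sets, and a gene was represented by its brightest such probe set over all arrays. Ndufb4 occurred only in probe sets of several genes and is not analysed here.

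CSD was compared with HC with limma (version 3.58.1, R 4.3.3, lmFit and eBayes, two-sided) over the 29838 probe sets kept, with Benjamini-Hochberg adjustment over all of them. Single genes were also tested with an exact permutation test over all 462 splits of the arrays into 6 and 6. No test was run over a list. Limma and the methods' t-test, which does not assume equal variances, were tested on simulated data made from this comparison, 29838 probe sets of which 200 were changed. At a simulated 1.25-fold change limma found 30 of 50 and the methods' t-test 25, and at 1.5-fold they found 46 and 41. Limma also called 5 unchanged probe sets and the methods' t-test 0. The simulated noise was independent between probe sets, without shifts of whole arrays, and the changed probe sets lay well above system noise. These rates may thus not hold for the real arrays, where 0 of the 14 oligodendrocyte markers had a limma adjusted p under 0.05.

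The members and lists were chosen with earlier results of these data known. Genes named in the text come from those with an unadjusted limma p under 0.05, the member with the smallest p per complex and direction, the core subunits, the tissue isoforms, and the 2 genes of each other list with the smallest p. Others were named for their role or after their values were seen (Uqcrh, Uqcrb, Uqcr10, Uqcrc2, Ndufaf4, Ndufc1, Ndufb11 and Cox7b). Alternatives were the methods' t-test, fold limits, no filter or floor, noise raised by 1 log2 unit, adjustment over single-gene probe sets, centring, quantile normalization, array weights, limma's trended and robust variance, a replicate block, the mean over probe sets, only subunits of the mature complexes, and leaving out HC replicates 2 and 6 or each array in turn.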

Additional observations from a re-analysis of the deposited data

Results flagged for a closer look

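Among 78 sets of 6 values examined (33 named genes and the mean deviations of the complexes and of all members, in HC and in CSD), 2 held a value far from the others, where chance marks about 1 group in 20. Ndufs7, the complex I subunit nearest to ubiquinone, had its lowest value on CSD replicate 8, 12.23 against 12.46 on the next array, a gap of 0.650 of the range of the group. Cox7a1, the muscle isoform of a complex IV subunit, had its highest value on HC replicate 2, 7.58 against 7.27 on the next, a gap of 0.714 of the range. On HC replicate 2, 83.3% of all measured genes were above their mean over the arrays.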

How the results depend on the processing

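The count of 0 members called after adjustment held under every alternative run, including the methods' t-test and the 12 fits that leave out 1 array each. Most alternatives gave 0 of all measured genes an adjusted p under 0.05, so this count could not differ there. Genes reached it only with adjustment over single-gene probe sets (24), trended and robust variance (14) and quantile normalization (1). At its unadjusted p the methods' t-test had 3 members higher and 3 lower, with Uqcrc2 in the place of Uqcrc1. Of all 17656 measured genes it had 306 higher and 1128 lower. The 12 fits that leave out 1 array gave 3 to 4 members higher and 2 to 3 lower at an unadjusted p. Their medians over all members ran from −0.01 to 0.01. Of all measured genes, 188 (without CSD replicate 9) to 959 (without HC replicate 2) were higher in these fits. Lower ones numbered 859 (without CSD replicate 10) to 1429 (without HC replicate 5). Uqcr11 had an adjusted p between 0.0635 (quantile normalization) and 1 (replicate block) over its alternatives. With a fold limit of 1.2, 1 member was higher and 0 lower at an unadjusted p. At any p, 1 of the 80 members and 141 of the 17656 measured genes differed by that much.

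Replicate numbers 2 and 6 occur in both groups, and arrays with the same number did not deviate together (correlations of −0.21 and −0.04). The labels do not say that the numbers pair animals, and these correlations cannot settle it. The fit with the replicate block rests on those 2 numbers. It gave 0 members higher and 0 lower at an unadjusted limma p (15 and 192 of all measured genes), and moved the median of complex II from −0.07 to −0.14.

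Of the 6 members, Uqcrc1 also lost its unadjusted p with the methods' t-test (−0.12), without HC replicates 2 and 6 (−0.07), and without HC replicate 1, HC replicate 2, or CSD replicates 7, 9 or 10 (−0.08 to −0.11). Ndufb2 did so with arrays centred on their medians (0.10). Cox8b passed an unadjusted p of 0.05 without HC replicate 2 (0.16) and Cox4i2 without HC replicate 5 (0.14). Cox8b was −0.08 under the replicate block. None of the 6 members changed direction under these alternatives. The depth of these arrays cannot be stated as counts; differences of members close to system noise, such as Cox8b, are the least certain.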

Other observations

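Other lists of genes from the same tissue gave these values (CSD minus HC, limma, unadjusted p under 0.05). Of 31 other mitochondrial membrane and matrix proteins, 23 had a lower mean and the median log2 fold change was −0.03. Hspe1, the co-chaperonin of the matrix, was higher by 0.15 ± 0.05 (SE, limma adjusted p = 0.344), and Phb2, a prohibitin of the inner membrane, was lower, at −0.11 ± 0.04 (limma adjusted p = 0.453). Among cell type markers, 0 of 9 inhibitory neuron markers were higher and 0 lower, with a median of −0.07. Lower markers were S100b and Aqp4 of 10 for astrocytes, P2ry12 of 8 for microglia, Tek of 7 for endothelium and Drd1 of 5 for striatal neurons, and 0 markers of these lists were higher, beside 6.52% of all measured genes that were lower and 1.89% that were higher. The red blood cell list had 1 measured gene, Alas2, which did not pass (0.14). Of the subunits encoded by mitochondrial DNA, 0 were measured with a probe set of their own.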
